A study of Mus musculus with 22 samples.

Results

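Liver mRNA of liver-Flcn-/- mice and Cre mice on chow was compared across all expressed genes, to describe what loss of Flcn did to the liver without a dietary injury. The comparison used 11 of the 22 libraries of the series, 5 labelled FLCN KO Chow and 6 labelled Cre Chow, 1 library per mouse, taken by their sample labels. Liver-Flcn-/- mice were Flcn f/f and carried Albumin-Cre, a recombinase driven by the albumin promoter in hepatocytes. Cre mice were Flcn WT/WT; Albumin-Cre+/-, so the recombinase was present in both groups. All mice were C57BL/6, 3 months old, and had received a purified chow with 10 kcal% fat for 6 weeks from 6 weeks of age. The other 11 libraries came from mice of the same genotypes on a methionine- and choline-deficient (MCD) diet, and they enter the fit, where they share the filter on low counts and the estimate of the spread, and the comparisons between the diets. The Cre libraries held 15276157 to 19417246 reads assigned to genes, and the liver-Flcn-/- libraries held 13751347 to 19645473. Levels are CPM, read counts over the TMM-adjusted library size, fold changes are liver-Flcn-/- over Cre from edgeR's quasi-likelihood fit, and a gene is called when its adjusted p (Benjamini-Hochberg over all genes tested) is under 0.05. Nothing in the labels places the mice in litters or batches, and p-values measure the spread between these mice.

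FLCN is a GTPase-activating protein that acts with its partners FNIP1 and FNIP2 on RagC and RagD at the lysosomal surface. In that role it lets mTORC1 phosphorylate TFEB and TFE3, transcription factors which otherwise enter the nucleus and switch on genes of lysosomes and autophagy. Many of those genes carry the palindrome CACGTG near their start. Hepatocytes make up most of the liver's mass and express albumin, urea cycle enzymes and cytochrome P450 genes, whereas Kupffer, stellate and endothelial cells are not targets of Albumin-Cre.

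The libraries differed in 4 ways that bear on the results. First, the libraries fell into classes by Xist, an RNA made from the inactive X chromosome of females. Cre Chow 2, 3 and 4 and FLCN KO Chow 2, 4 and 5 had 6222 to 6761 Xist counts, and Cre Chow 1, 5 and 6 and FLCN KO Chow 1 and 3 had 0 to 19. The same 5 Xist-low libraries had the lower shares of uniquely mapped reads among the chow libraries, so that on chow the sex read from Xist and the mapping class cannot be told apart. Second, reads of Y-linked genes were present in some Xist-high libraries, at 13.998% of the Xist-low mean in FLCN KO Chow 2, 6.48% in FLCN KO Chow 4 and 5.35% in Cre Chow 2. In addition, Cre Chow 5 carried bile duct and mucosal transcripts that no other library had at that level, described near the end. Finally, FLCN KO Chow 2 had the lowest value of the 5 liver-Flcn-/- libraries for several of the genes that rose most, among them Rragd, Cd63, Hexa and Bex2. Whether the libraries with Y-linked reads hold material or reads of another sample was not tested, nor was the part of this in the lower values of FLCN KO Chow 2.

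The first principal component of the 11 libraries (40.6% of the variance) separated Xist-high from Xist-low libraries. The second (25.4%) separated the genotypes: liver-Flcn-/- libraries lay between 10.95 and 47.51 on it and Cre libraries between −35.64 and −14.04. FLCN KO Chow 2 was the liver-Flcn-/- library nearest to the Cre libraries on that axis.

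**Figure D1:**
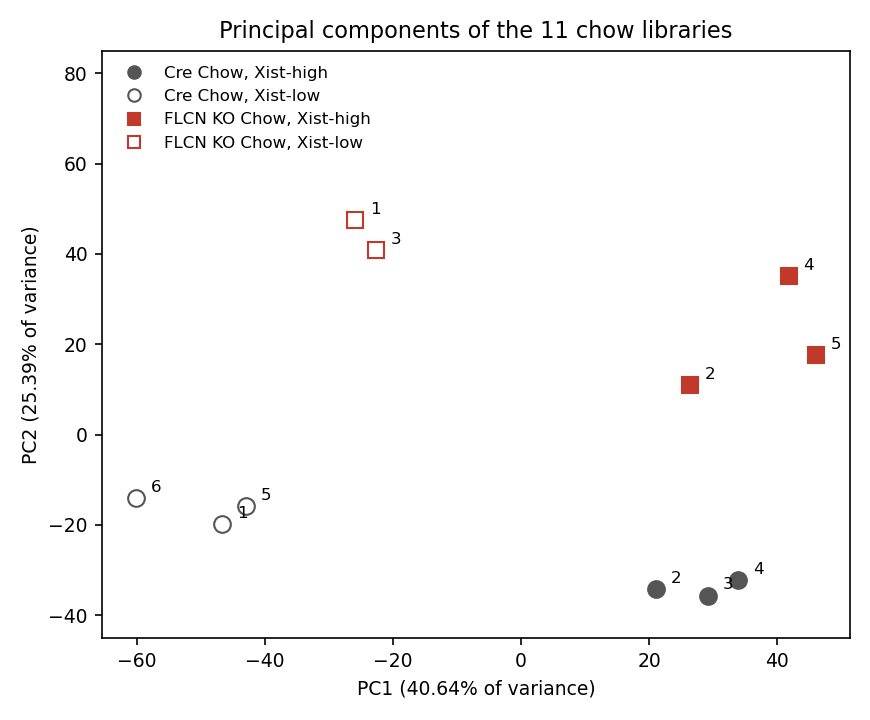
Position of each chow library on the first 2 principal components of log2 CPM over 14062 genes; circles are Cre and squares liver-Flcn-/- libraries, filled symbols are Xist-high and open symbols Xist-low, and numbers are replicates. The genotypes separate along PC2 within both Xist classes, and PC1 separates the classes.

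Of 14062 genes tested, 776 were higher in liver-Flcn-/- mice and 436 were lower, which is 8.62% of the genes tested (5.52% higher and 3.1% lower). Large changes were more frequent among the higher genes. Above an absolute log2 fold change of 1 there were 381 higher genes and 73 lower ones, and the median called gene changed by 0.99 among the higher and by −0.43 among the lower on the log2 scale. The median over all genes tested was −0.03. In 564 genes (4.01% of those tested) every liver-Flcn-/- library was above every Cre library, and in 412 (2.93%) every one was below. Contrasts within the Xist classes came from a further fit of all 22 libraries, grouped by genotype, diet and Xist class. Its contrast within the Xist-high chow mice had 452 genes higher (3.21%) and 159 lower (1.13%). Within the Xist-low chow mice 416 were higher (2.96%) and 133 lower (0.946%). The genotype difference itself differed between the classes in 6 genes (0.0427%), while Xist-low and Xist-high Cre mice differed in 6.62% of all genes tested. Of the 776 higher genes, 775 had the same direction in both classes, as did 435 of the 436 lower genes, although the classes were part of the data that chose these genes. Fitted on the 11 chow libraries alone, 746 genes were higher and 315 lower, of which 623 and 249 were among the 776 and 436. Without Cre Chow 5 the counts were 638 higher and 303 lower. Leaving out FLCN KO Chow 4 gave 500 higher and 170 lower genes, the lowest numbers among the single libraries left out.

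Flcn (ENSMUSG00000032633, chromosome 11, 59791408 to 59810016, minus strand, GRCm38) was counted over the whole gene, which includes the exons outside the deleted one. Its level had a minimum of 26.1, a median of 31.8 and a maximum of 40.2 CPM in Cre mice. The 5 liver-Flcn-/- mice had 24.2, 19.96, 16.7, 19.4 and 21.8 CPM, all below the lowest Cre mouse. This was a log2 difference of −0.63 (SE 0.173) with an edgeR adjusted p of 0.0249. Without Cre Chow 6, FLCN KO Chow 3 or FLCN KO Chow 4 it was −0.56, −0.57 and −0.62 and missed the threshold (adjusted p = 0.0567, 0.0663 and 0.0679). It also missed it with a replicate block (−0.57, adjusted p = 0.0528). The same held in fits that kept only the Xist-high or only the Xist-low chow libraries (adjusted p = 0.244 and 0.277). The bulk tissue holds cells that Albumin-Cre does not target, and in bulk tissue fewer cells of a type and less RNA per cell cannot be told apart.

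The Rag GTPases and their scaffold, to which FLCN binds, were described with a list of 28 genes of which 27 were tested. In this list 3 genes rose, Rragd, Rragc and Lamtor3, and 3 fell, Flcn, Lamtor2 and Mios (5.52% and 3.1% of all genes). None of the 3 lower genes was called without FLCN KO Chow 3 or without FLCN KO Chow 4. Rragd encodes RagD, 1 of the 2 GTPases that FLCN acts on, and stood at 1.502, 2.43 and 2.59 CPM (minimum, median, maximum) in Cre mice. The liver-Flcn-/- mice had 41.7, 17.2, 40.5, 37.9 and 28.6 CPM. No library of either group came near the other group, and the fold change was 15.0 (log2 3.91, SE 0.252, adjusted p = 7.8e-10). Rragc, its counterpart RagC, changed far less, from a median of 47.6 CPM in Cre mice to 66.8, 55.5, 62.7, 63.0 and 59.7 CPM (log2 0.38, SE 0.0761, adjusted p = 0.00274). The Ragulator subunits moved in opposite directions, with Lamtor3 at log2 0.38 (adjusted p = 0.00515) and Lamtor2 at −0.32 (adjusted p = 0.0205). Fnip2 missed the threshold after adjustment (log2 0.79, SE 0.261, adjusted p = 0.0643), and its 5 liver-Flcn-/- values of 42.3, 35.5, 31.4, 48.0 and 45.6 CPM all lay above the Cre maximum of 28.9 CPM. The mRNAs of the 4 MiT-TFE factors themselves gave no call. Tfeb had a median of 8.23 CPM in Cre mice against 7.87 in liver-Flcn-/- mice, and the Tfe3 log2 fold change was −0.17 (SE 0.0708, adjusted p = 0.13), with every liver-Flcn-/- library below every Cre library. In that list 1 gene had an unadjusted p under 0.05, and DESeq2 and limma-voom called none.

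**Figure D2:**
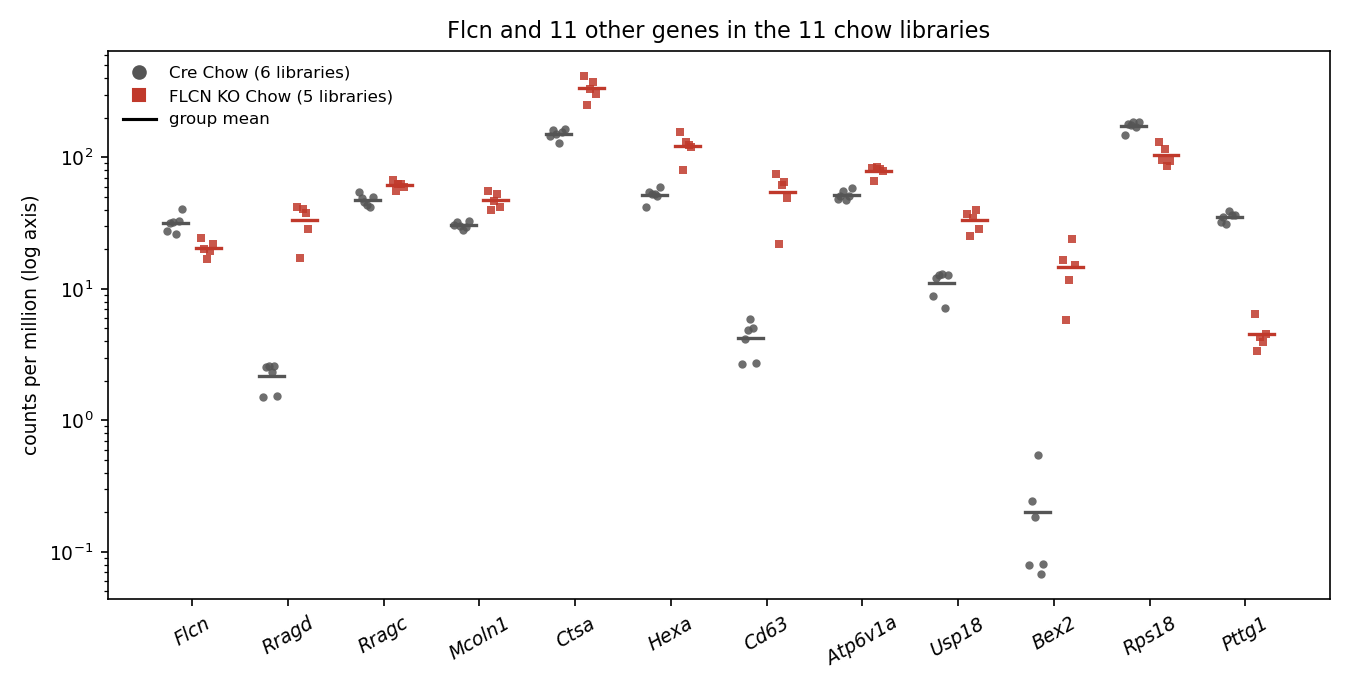
Level of 12 genes in each chow library, in CPM on a log axis; circles are the 6 Cre libraries, squares the 5 liver-Flcn-/- libraries and bars the group means. Rragd, Cd63 and Bex2 differ with fold changes of 15.0, 12.7 and 66.8 and no overlap, whereas Flcn, Rps18 and Pttg1 are lower in liver-Flcn-/- mice.

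Lysosomal genes were described with 3 lists. Over all genes tested, 5.52% rose and 3.1% fell, with a median log2 fold change of −0.03. Of 53 lysosomal hydrolases and cofactors 17 rose and 1 fell (median log2 fold change 0.31), of 20 subunits of the V-ATPase, the pump that acidifies lysosomes, 10 rose and none fell (median 0.29), and of 32 lysosomal membrane proteins 9 rose and none fell (median 0.23). Hexa, a subunit of beta-hexosaminidase, rose from a Cre range of 42.2 to 59.1 CPM to 157, 80.4, 131, 124 and 119.9 CPM (log2 1.23, SE 0.126, adjusted p = 9.5e-07). Ctsa, the protective protein cathepsin A, ranged from 128.0 to 165 CPM in Cre mice and stood at 418, 249, 331, 376 and 304 CPM in liver-Flcn-/- mice (log2 1.15, SE 0.119, adjusted p = 1.1e-06). For both genes the groups did not overlap and FLCN KO Chow 2 was the lowest of its group. The cysteine protease gene Ctsz (log2 1.20) and the palmitoyl thioesterase gene Ppt1 (log2 0.63) followed, and Ctsh was the hydrolase gene that fell (log2 −0.33, adjusted p = 0.0121). Ctsf did not pass the test on chow (log2 0.39, SE 0.129, adjusted p = 0.0633). It passed with DESeq2, without FLCN KO Chow 5 and on the chow libraries alone with sex as a covariate.

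Among the membrane proteins the tetraspanin gene Cd63 changed most. It had 2.69, 4.50 and 5.90 CPM (minimum, median, maximum) in Cre mice and 74.2, 21.9, 62.1, 64.8 and 48.8 CPM in liver-Flcn-/- mice, a fold change of 12.7 (log2 3.67, SE 0.328, adjusted p = 1.7e-07). The calcium channel gene Mcoln1 rose from 28.1 to 32.8 CPM in Cre mice to 55.1, 39.5, 46.3, 52.9 and 42.0 CPM (log2 0.63, SE 0.0817, adjusted p = 2.4e-05). The cystine exporter gene Ctns and the Batten disease gene Cln3 rose by similar amounts (log2 0.57 and 0.63). In the V-ATPase list the catalytic subunit gene Atp6v1a rose from a Cre maximum of 58.3 CPM to 82.7, 65.7, 84.9, 80.8 and 79.2 CPM (log2 0.60, SE 0.0894, adjusted p = 0.000119), and Atp6v1b2, Atp6v1d and Atp6ap1 rose by 0.55, 0.51 and 0.32. Leaving out Cre Chow 5 left 16, 7 and 9 higher genes in the 3 lists. The V-ATPase count was 6 without Cre Chow 3, FLCN KO Chow 1 or FLCN KO Chow 4.

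To show the sequence context of the lysosomal genes, the 250 bases before each RefSeq start (GRCm38.p6) were searched for CACGTG and for the longer palindrome TCACGTGA that contains it, both of which read the same on either strand. RefSeq promoters matched 10546 of the tested genes, some with several starts, 13513 promoters in all. CACGTG was present in 9.21% of the promoters of higher genes, 8.26% of lower genes and 8.12% of all promoters, and TCACGTGA in 2.67%, 2.06% and 1.45%. Of the 40 genes called higher in the Rag, lysosomal and autophagy lists, 31 had a promoter and 8 of them held CACGTG, against 34 of 152 among all tested genes of these lists with a promoter. Stretches of 30 bases around the motif are printed for 6 of these 8 genes, 5′ to 3′ on the gene's strand with CACGTG in capitals. They are chr4:123917309-123917338 (plus strand), chr2:164833743-164833772 (plus), chr8:3500436-3500465 (plus), chr16:44139373-44139402 (minus), chr4:117887348-117887377 (minus) and chr17:25133361-25133390 (plus), in the order of the lines.
Rragc: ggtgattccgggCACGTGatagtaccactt
Ctsa: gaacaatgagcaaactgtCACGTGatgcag
Mcoln1: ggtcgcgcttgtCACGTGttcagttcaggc
Atp6v1a: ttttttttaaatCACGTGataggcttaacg
Atp6v0b: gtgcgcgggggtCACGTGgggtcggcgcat
Clcn7: gcctccgtcgtcagtCACGTGggcaccgat
The Ctsa and Atp6v1a stretches hold the longer palindrome. A match is a description of the letters in these windows and does not show binding.

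Of 54 genes of the autophagy core, 1 rose and 4 fell (median log2 fold change −0.09), where 5.52% of all genes rose and 3.1% fell. Gabarapl1, a member of the Atg8 family that coats autophagosomes, was the higher one (380 ± 61.9 against 522 ± 93.4 CPM, SD, n = 6 and 5; log2 0.46, adjusted p = 0.0402), and the list had no higher member in 7 of the 11 fits that left out 1 library. Ulk2, a kinase that starts autophagy, fell from 61.0, 74.1 and 106.0 CPM (minimum, median, maximum) in Cre mice to 35.6, 46.3, 43.7, 32.0 and 34.1 CPM (log2 −1.03, SE 0.156, adjusted p = 0.000148). It lies 1.97 Mb from Flcn. Atg12, Atg3 and Atg5, which act in the conjugation of Atg8 proteins, fell by 0.27, 0.29 and 0.23. Each lost its call without FLCN KO Chow 4 (adjusted p = 0.081, 0.0831 and 0.114) and without at least 1 other library. The receptor gene Sqstm1 had overlapping values, with a Cre range of 380.1 to 536 CPM and liver-Flcn-/- values of 459, 403, 443, 453 and 458 CPM (log2 −0.04, SE 0.137, adjusted p = 0.899). Depp1 had 50.6 to 91.4 CPM in Cre mice and 248, 52.4, 127, 149.7 and 80.8 CPM in liver-Flcn-/- mice, with overlapping groups (log2 0.91, SE 0.327, adjusted p = 0.0873). It passed without FLCN KO Chow 2 and on the chow libraries alone with sex as a covariate.

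FLCN also binds AMPK, the energy sensor upstream of the coactivator PGC-1. Of 18 genes of the AMPK and PGC-1 list 1 rose, a share near the 5.52% of all genes, the catalytic subunit gene Prkaa1, from a Cre maximum of 14.6 CPM to 16.0, 17.4, 18.4, 19.2 and 17.4 CPM (log2 0.47, SE 0.114, adjusted p = 0.0117). Ppargc1a, which encodes PGC-1α, had a median of 10.8 CPM in Cre mice and 20.1 CPM in liver-Flcn-/- mice, and the difference did not pass (log2 0.61, SE 0.207, adjusted p = 0.0725). It passed with DESeq2 (adjusted p = 0.0421), on the chow libraries alone (0.039) and in 3 other alternatives. Of 75 subunits of oxidative phosphorylation none rose and 4 fell on chow (Ndufa7, Ndufb11, Uqcrb and Ndufa6, by 0.46 to 0.29; list median −0.10), a share near the 3.1% of all genes, and 9 fell without FLCN KO Chow 1.

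The gene list with the most lower members was that of the cytosolic ribosomal proteins. Of 77 tested, 30 were lower and none was higher (3.1% and 5.52% of all genes). In this list 76 had a negative log2 fold change, and the list median was −0.34. Over all genes tested, 6377 of 14062 had a positive log2 fold change. Rps18 fell most among the named ones, from 147.5 to 186 CPM in Cre mice to 131, 95.4, 116, 85.9 and 93.2 CPM (log2 −0.74, SE 0.164, adjusted p = 0.00572). Rpl17, Rpl39 and Rpl7 fell by 0.48, 0.51 and 0.34, with no overlap between the groups. Processed pseudogenes copy most of these genes, and reads shared with a copy may not have been counted. The count of lower members moved from 10 to 34 when single libraries were left out, the lowest value being without FLCN KO Chow 5, and was 21 without Cre Chow 5. In the Xist-low libraries alone none of the 77 was called. On MCD the same list had 1 lower member.

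Hepatocyte genes were described with several lists. Where 3.1% of all genes fell, 5 of 43 genes of the urea cycle and amino acid catabolism fell and none rose (median −0.24). Among them Glud1, Gnmt, Ahcy and Cth fell by 0.50, 0.58, 0.44 and 0.68. Of these Glud1 kept its call in all 11 fits that left out 1 library, Gnmt lost it without FLCN KO Chow 3, Ahcy without FLCN KO Chow 4 and Cth in 8 fits. The list had 3 lower members without FLCN KO Chow 3 or 4. Of 43 cytochrome P450 genes 5 fell and none rose (median −0.37), where 3.1% of all genes fell. Cyp2a5 fell from a median of 536 CPM (range 245 to 1134) to 108, 236, 77.6, 219 and 348 CPM (log2 −1.59, SE 0.367, adjusted p = 0.00775), and the ranges overlapped. Its log2 fold change was −0.71 in the Xist-high libraries, without a call (adjusted p = 0.315), and −3.02 in the Xist-low ones. Cyp2c67, Cyp2d40, Cyp2d22 and Cyp2j5 were the other four. The count was 3 without Cre Chow 5, FLCN KO Chow 3 or FLCN KO Chow 4 and 9 without FLCN KO Chow 2. With DESeq2 11 P450 genes were lower, 13 with the mapping class as a covariate, 16 on the chow libraries alone with sex as a covariate, and 15 lower and 1 higher by the mean of both classes. In the Xist-high libraries alone 2 were lower and 2 higher. Periportal genes had 2 higher and 2 lower members of 20, small counts beside the 5.52% and 3.1% of all genes. Of 27 acute phase genes 1 rose, a share below the 5.52% of all genes. It was Hpx, which encodes the heme carrier hemopexin, from 3794, 4146 and 5764 CPM (minimum, median, maximum) to 8604, 5325, 8326, 6865 and 5478 CPM (log2 0.67, SE 0.133, adjusted p = 0.00214), with overlapping groups.

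Of 23 gluconeogenesis and glycogen genes 3 rose and 2 fell, small counts beside 5.52% and 3.1% of all genes. Pck1, the cytosolic enzyme that commits carbon to gluconeogenesis, fell (log2 −0.89, SE 0.273, adjusted p = 0.0434), whereas its mitochondrial counterpart Pck2 rose (log2 1.38, SE 0.331, adjusted p = 0.0107). Pck1 lost its call in 8 of the 11 fits that left out 1 library. Without FLCN KO Chow 4 none of the 3 higher genes, Pck2, Pgm2 and Pygb, was called (adjusted p = 0.0617, 0.0559 and 0.17). Without Cre Chow 5 neither of the 2 lower genes of the gluconeogenesis list, Pck1 and Pgm1, was called. In the glycolysis list Ldhb, a lactate dehydrogenase subunit that is scarce in liver, rose from 1.28 to 2.03 CPM in Cre mice to 24.1, 7.84, 11.3, 19.1 and 10.8 CPM (log2 3.14, SE 0.359, adjusted p = 4.1e-06). Lipid synthesis gave no call, with 0 of 26 lipogenic genes and 0 of 24 cholesterol synthesis genes past the threshold under edgeR and list medians of −0.20 and −0.33. All 24 cholesterol synthesis genes had a negative log2 fold change, and 2, 3 and 2 of them were called lower without Cre Chow 5, Cre Chow 6 and FLCN KO Chow 5. At an unadjusted p under 0.05 the edgeR fit held 5 and 10 of them. DESeq2 called 1 lipogenic and 4 cholesterol synthesis genes lower, and limma-voom called 0 and 1. Apoa4 rose (log2 1.53, SE 0.371, adjusted p = 0.0115), with overlapping groups, and lost its call without FLCN KO Chow 4.

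Circadian, sex-biased and major urinary protein genes gave no calls either. None of 21 clock genes, 20 male-biased, 20 female-biased and 21 major urinary protein genes was called by edgeR. At an unadjusted p under 0.05 these lists held 4, 1, 2 and 1 genes, DESeq2 called 2 clock genes lower and limma-voom called 1 female-biased gene higher. The list medians were −0.25, −0.45, −0.79 and −0.89. Within the Xist-high and Xist-low mice the medians differed in sign, at 0.61 and −0.27 for male-biased and −1.07 and 0.99 for female-biased genes. The mean of both classes called 3 male-biased genes higher and 1 lower, 1 female-biased gene higher and 2 lower, and 2 major urinary protein genes lower. Mup3, a major urinary protein gene, stood at 11830 ± 8006 CPM in Cre mice and 6156 ± 3717 CPM in liver-Flcn-/- mice (SD, n = 6 and 5), and its 3 Xist-low Cre libraries had 16530, 18890 and 21490 CPM against at most 5725 in the Xist-high ones.

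**Figure D3:**
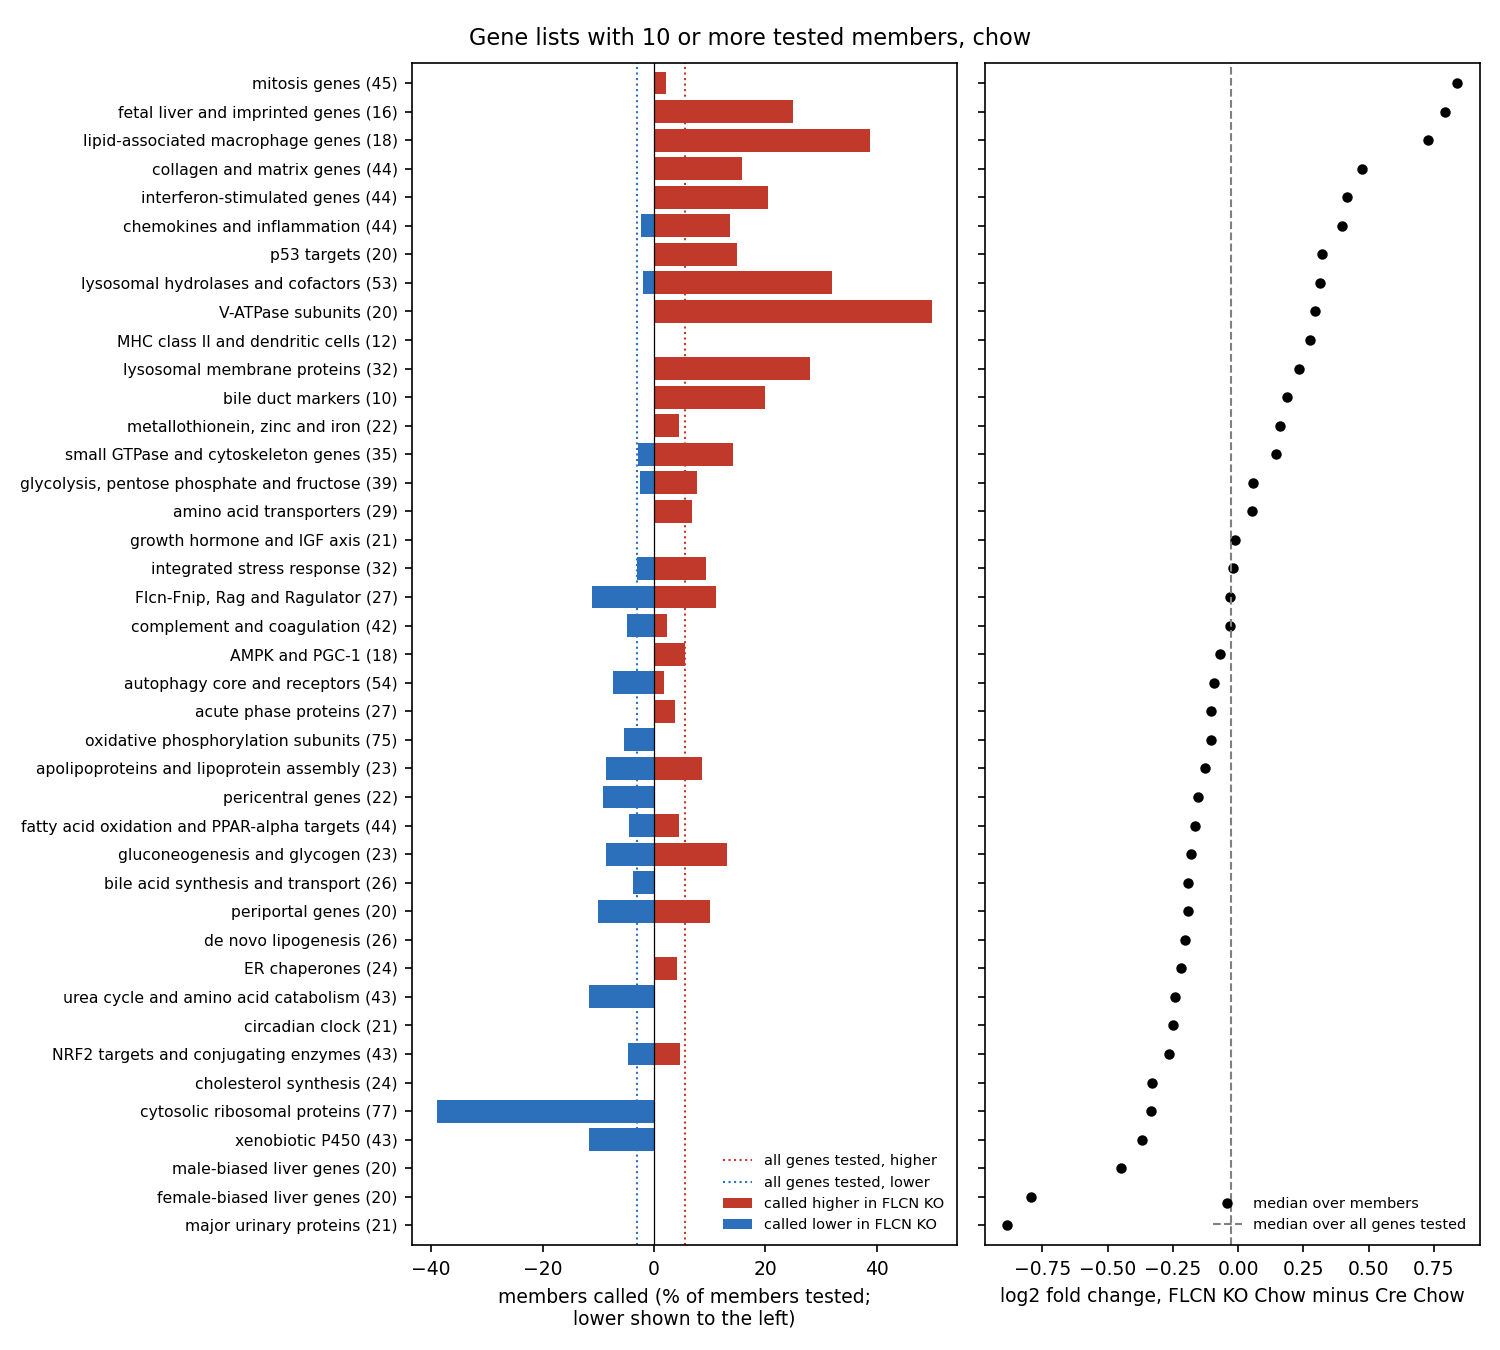
For each gene list with at least 10 tested members (number in brackets), the percent of members called higher or lower on chow (left; dotted lines are 5.52% and 3.1% over all genes tested) and the median log2 fold change (right; dashed line −0.03). V-ATPase, lipid-associated macrophage and lysosomal hydrolase genes have the highest shares of higher members, and cytosolic ribosomal proteins the highest share of lower ones. Some genes are in several lists.

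Among genes with non-overlapping groups, a mean of at least 1 CPM and no clone name, the 10 largest positive changes were Prkg2, Il12rb2, Fabp3, Bex2, Mmp27, Anxa8, Adra2a, Aqp7, Epdr1 and Chil1. None of the 10 exceeded 1.30 CPM in any Cre library, and the liver-Flcn-/- values differed widely between mice. Mmp27, a matrix metalloproteinase, had 0.158, 0.821 and 1.30 CPM (minimum, median, maximum) in Cre mice and 132, 18.9, 81.4, 17.3 and 14.9 CPM in liver-Flcn-/- mice (log2 6.02, SE 0.627, adjusted p = 1.3e-06). Il12rb2, a subunit of the interleukin 12 receptor, had at most 0.364 CPM in Cre mice and 35.8, 5.35, 48.8, 2.81 and 0.97 CPM in liver-Flcn-/- mice. In both genes the 2 Xist-low mice, replicates 1 and 3, were the highest. Prkg2, a cGMP-dependent kinase, had 2 counts over the 6 Cre libraries together, and the ratio of CPM was 174 (95% counting interval 47.8 to 1444).

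Bex2, a gene of the brain-expressed X-linked family, rose from at most 0.548 CPM to 16.7, 5.82, 11.7, 23.8 and 15.1 CPM (log2 6.06, SE 0.509, adjusted p = 6.1e-08). It belongs to the list of fetal liver and imprinted genes, where 4 of 16 rose and none fell (5.52% and 3.1% of all genes). The other three were Bex1, H19 and Igf2bp3, and 2 of the 4 were called without FLCN KO Chow 4. Bex1 lost its call without FLCN KO Chow 4 or 5. H19, an imprinted long noncoding RNA, stood at 1.40, 0.654, 1.34, 47.0 and 6.31 CPM against at most 0.789 in Cre mice, and its call was lost without FLCN KO Chow 4. Igf2bp3 lost its call without FLCN KO Chow 3. Aqp7, a channel for glycerol, Fabp3, a fatty acid binding protein of heart and muscle, and Chil1, a secreted chitinase-like protein, completed the positive set with Anxa8, Epdr1 and Adra2a, in which FLCN KO Chow 4 held 10.7 CPM and the other four at most 1.83.

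Under the same 3 limits the 10 largest negative changes were Cnmd, Pttg1, Dct, Prdx2-ps1, Serpina7, Ces1b, Tbx3os1, Sucnr1, Cacna1a and Cpsf4l. Pttg1, which encodes securin, had 31.2, 35.9 and 38.8 CPM (minimum, median, maximum) in Cre mice and 6.38, 3.39, 4.30, 3.97 and 4.53 CPM in liver-Flcn-/- mice (log2 −2.97, SE 0.244, adjusted p = 5.4e-08). The spread within each group was small beside that gap. Sucnr1, the succinate receptor gene, fell from 49.5 to 105.9 CPM to 22.2, 23.1, 16.7, 8.93 and 18.97 CPM (log2 −1.81, SE 0.262, adjusted p = 9.3e-05). Serpina7, thyroxine-binding globulin, fell from a median of 27.8 to 6.89 CPM, and Dct, a melanin synthesis enzyme, from 17.8 to 1.95 CPM. Ces1b, a carboxylesterase, fell from a median of 421 to 141 CPM (log2 −1.89, SE 0.319, adjusted p = 0.000445).

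Of 44 genes of the response to interferon 9 rose on chow and none fell (6 without FLCN KO Chow 4). In this list 40 had a positive log2 fold change (median 0.42). Beside this and the lists that follow, 5.52% of all genes rose, 3.1% fell and 6377 of 14062 had a positive log2 fold change. Usp18, which removes ISG15 and dampens the interferon receptor, rose from 7.10, 12.4 and 12.9 CPM (minimum, median, maximum) to 37.0, 25.2, 34.8, 39.8 and 28.7 CPM (log2 1.58, SE 0.159, adjusted p = 7.7e-07). Irf7 rose by 0.67, Oas1a by 1.14 and Bst2 by 0.52, without overlap. In the list of lipid-associated macrophage genes 7 of 18 rose and none fell (median 0.73). They were Cd63, Lpl, Spp1, Cd9, Gpnmb, Trem2 and Mmp12, and Lpl, a lipase, rose from 22.2 to 49.7 CPM to 136, 61.5, 100.8, 79.6 and 89.0 CPM (log2 1.59, SE 0.254, adjusted p = 0.000257). Of these Cd63 and Gpnmb are also counted among the lysosomal membrane proteins, Mmp12 among the matrix genes and Spp1 among the bile duct markers. Trem2 had 0.541 ± 0.203 CPM in Cre mice and 1.72 ± 0.876 CPM in liver-Flcn-/- mice (SD, n = 6 and 5). Collagen and matrix genes had 7 higher members of 44 (median 0.47; 4, 4 and 3 without Cre Chow 1, FLCN KO Chow 4 and FLCN KO Chow 5, and 11 without FLCN KO Chow 3), chemokines and inflammation 6 higher and 1 lower of 44 (median 0.40). Of 20 p53 targets 3 rose, and in 6 of the 11 fits that left out 1 library 1 was called. Gdf15 (log2 2.59, SE 0.39, adjusted p = 0.000141) kept its call in all 11. Mitosis genes had a list median of 0.84, with 41 of 45 positive and 9 higher without overlap between the groups, where 4.01% of all genes were. By edgeR 1 of them was called, Ccnd1 (log2 1.098, SE 0.341, adjusted p = 0.0475), and it lost its call in 7 of the 11 fits that left out 1 library. The count was 6 with DESeq2, 14 on the chow libraries alone and 20 on these with sex as a covariate.

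Markers of other cell types were measured beside these lists. The summed level of 6 Kupffer cell markers was 391 ± 73.9 CPM in Cre mice and 449 ± 76.2 CPM in liver-Flcn-/- mice (SD), with Clec4f the most abundant (156 and 174 CPM). One of the 6, Marco, rose, and its call was lost without FLCN KO Chow 1, which had 105.6 CPM against at most 29.5 in the other four. The sum of 7 T, NK and B cell markers was 4.69 ± 1.98 against 8.54 ± 1.02 CPM, with no member called among 6 tested by edgeR (2 at an unadjusted p under 0.05, 0 by DESeq2). The sum over 6 stellate markers was 304 ± 69.9 against 330.4 ± 56.9 CPM. Over 6 sinusoidal endothelial markers it was 206 ± 43.7 against 248 ± 29.6 CPM, where Stab2 rose (log2 0.76, SE 0.119, adjusted p = 0.000228). Over 5 erythroid markers it was 206 ± 85.8 against 276 ± 125 CPM, where Hbb-bt rose (log2 1.26, SE 0.345, adjusted p = 0.0251) and lost its call in 4 of the 11 fits that left out 1 library. Much of the erythroid sum was Alas2, which followed the Xist class. It had 197, 159 and 212 CPM in the Xist-low Cre libraries and 13.2 to 24.2 CPM in the Xist-high ones. The most abundant member, Hbb-bs, averaged 81.3 CPM in Cre and 163 CPM in liver-Flcn-/- mice and was not called. Over 5 neutrophil markers the sum was 3.51 ± 2.28 against 4.05 ± 1.72 CPM. Sums over 5 mesothelial markers were 168 ± 13.4 against 163 ± 24.0 CPM, nearly all of it Krt8 (165 and 158 CPM), a keratin that hepatocytes also express, and 3 of the 4 tested had a positive log2 fold change. Over 5 skeletal muscle markers the sums were 1.85 ± 0.905 against 2.42 ± 3.01 CPM. Over 5 adipocyte markers they were 10.1 ± 1.97 against 6.84 ± 1.58 CPM, nearly all of it Fabp4 (10.0 and 6.68 CPM). Over 5 pancreas acinar markers they were 45.1 ± 20.8 against 24.0 ± 9.17 CPM, nearly all of it Cela1. Plin1, Lep and Prss1 had 0 counts in the 11 libraries. The 5 hepatocyte markers, led by Alb, summed to 122200 ± 19830 CPM in Cre mice and 101500 ± 19940 CPM in liver-Flcn-/- mice, and Ttr, transthyretin, fell (log2 −0.46, SE 0.106, adjusted p = 0.00793). The part of these cell types in the higher interferon, macrophage and matrix genes was not tested.

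Cre Chow 5 stood apart from the other Cre libraries in its bile duct markers. Its sum over 10 markers was 195 CPM, against 86.9 to 118 CPM in the other 5 Cre libraries and 166 to 316 CPM in liver-Flcn-/- mice. Cdh1, the most abundant member, had 71.2 CPM in Cre Chow 5, next to 69.7 CPM in Cre Chow 1 and 30.7 to 46.8 CPM in the other four, and 84.4 to 178 CPM in liver-Flcn-/- mice. In liver-Flcn-/- mice the called members were Cdh1 (log2 1.37, SE 0.235, adjusted p = 0.000541) and Spp1 (log2 1.21, SE 0.223, adjusted p = 0.00119), both also made outside bile ducts. In Cre Chow 5 the members above every other library included the defining duct keratin Krt19, at 18.3 CPM against 0.723 to 2.73 CPM in the other 5 Cre libraries and 0.672 to 2.05 CPM in liver-Flcn-/- mice, together with Muc1 (15.6 CPM), Tspan8 (10.2 CPM), Epcam (7.44 CPM) and Krt7 (3.31 CPM). In all, 7 genes called lower in liver-Flcn-/- mice had a value in Cre Chow 5 above 5 times the next Cre library: Dmbt1 (325 against 13.5 CPM), Ltf (40.5 against 1.64), Cxcl5 (23.9 against 0.789), Gabrp (12.6 against 0.425), Duox2 (12.1 against 0.729), Sftpd (11.1 against 1.64) and Fcgbp (7.98 against 0.553). They code for mucosal and secreted defence proteins, a chemokine, a channel and an oxidase. Among all genes tested 19 had such a value. Without Cre Chow 5 none of the 7 was called (edgeR adjusted p from 0.0797 for Dmbt1 to 0.399 for Cxcl5). All 7 were still lower there, by log2 −5.94 for Dmbt1 to −1.11 for Sftpd. The genes were chosen by their value in Cre Chow 5, so the lost calls are no separate test. Cxcl5, the only lower gene of the inflammation list, was called only with that library included (log2 −1.59 without it).

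**Figure D4:**
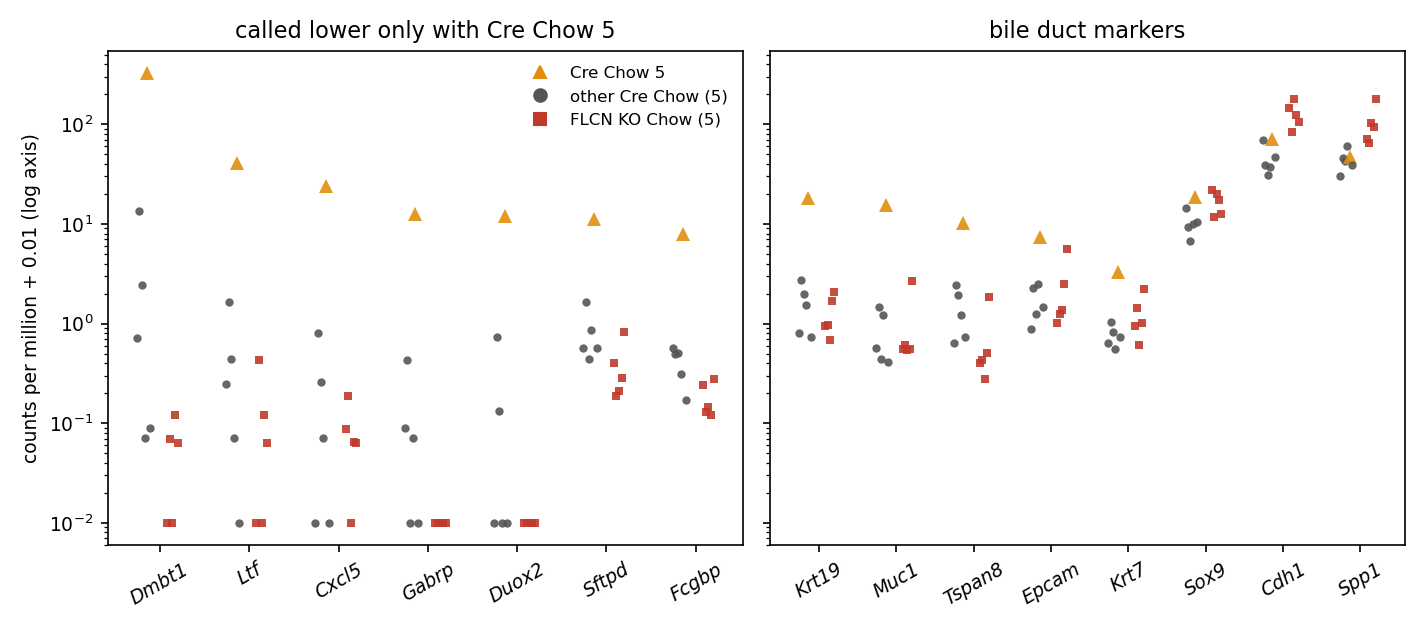
CPM plus 0.01 on a log axis in each chow library for the 7 genes called lower with a value in Cre Chow 5 above 5 times the next Cre library (left) and for 8 bile duct markers (right); triangles are Cre Chow 5, circles the other 5 Cre libraries and squares the 5 liver-Flcn-/- libraries. Cre Chow 5 is highest for all 7 genes and for Krt19, Muc1, Tspan8, Epcam and Krt7, while Cdh1 and Spp1 are highest in liver-Flcn-/- libraries.

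On chow, the share of genes called near Flcn on chromosome 11 was above that of all genes. Of 113 tested genes within 5 Mb of Flcn, 11 were higher and 12 lower, 20.4% against the 8.62% of all genes, and the share of lower genes was 10.6% against 3.1%. From 5 to 10 Mb 9.09% of 110 genes were called, from 10 to 20 Mb 11% of 209 and beyond 20 Mb 7.84% of 689. On MCD the shares over the same distances were 17.7%, 19.1%, 20.6% and 16.8%, against 16.6% of all genes. Without Cre Chow 5, 21 of the 113 were called. Among the lower genes 2610507I01Rik, 0.589 Mb away, had 6.51 to 8.87 CPM in Cre mice and 0.234, 0.119, 0.0672, 0.221 and 0.108 CPM in liver-Flcn-/- mice (log2 −5.61, SE 0.342, adjusted p = 3.8e-10). It was also low in liver-Flcn-/- mice on MCD (log2 −4.86, adjusted p = 3.3e-09). Gm12248, 1.7 Mb away, ran the opposite way, with 2 counts over the 6 Cre libraries and 2.26, 2.26, 1.28, 1.93 and 1.94 CPM in liver-Flcn-/- mice. Further lower genes were Gm12265, the zinc finger gene Zfp39, the guanylate kinase gene Guk1, the copper chaperone gene Atox1 and Ulk2. Of the 23 called genes 8 were called in the same direction on MCD. Over all chromosomes this held for 286 of the 776 higher genes (36.9%) and 81 of the 436 lower ones (18.6%). The adjacent genes Pld6 and Cops3, 0.004 and 0.008 Mb away, were lower by 1.25 and 0.29. The cause of these calls was not tested.

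**Figure D5:**
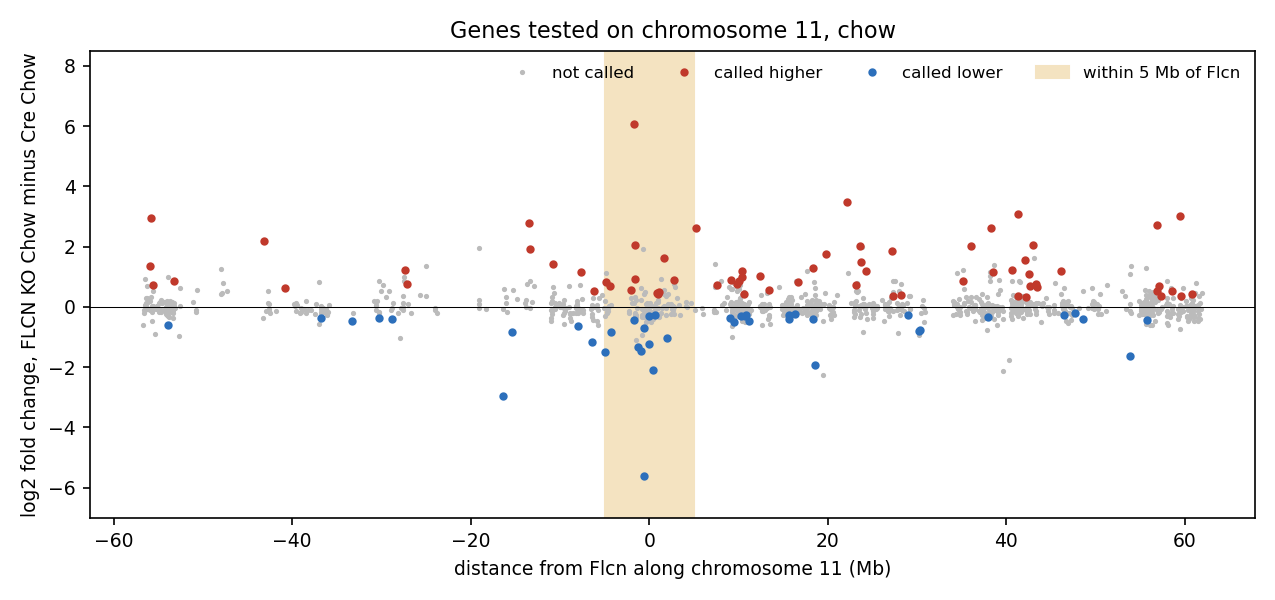
Log2 fold change on chow (y) of tested genes on chromosome 11 against their distance from Flcn in Mb (x); red and blue points are genes called higher and lower, grey points are not called, and the band marks 5 Mb on either side. Gabrp, called lower with a log2 fold change of −8.35 at −26.2 Mb, lies below the plotted range. Called genes within the band make up 20.4% of its genes, with 2610507I01Rik at −5.61 and Gm12248 at 6.05.

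The chow differences were set beside those of the 11 MCD libraries, which are other mice. Flcn itself was not called on MCD (log2 −0.16, SE 0.17, adjusted p = 0.567, against −0.63 on chow), and the difference between the diets was not called either (interaction 0.47, adjusted p = 0.24). Of the 776 genes higher on chow, 561 had the same sign and 286 were also higher on MCD, 36.9% of the chow list, where 8.06% of all genes were higher on MCD, and 25.2% of the MCD list of 1134, where 5.52% of all genes were higher on chow. Of the 436 lower genes 299 had the same sign and 81 were also lower, 18.6% of the chow list (8.53% of all genes were lower on MCD) and 6.76% of the MCD list of 1199 (3.1% of all genes were lower on chow). The difference between diets was called for 261 of the higher genes and 100 of the lower ones (8.83% of all genes tested), and in 254 and 99 of these the difference was smaller or opposite on MCD. The genes were chosen on chow libraries that also enter this interaction. Median log2 fold changes went from 0.99 on chow to 0.36 on MCD for the higher genes and from −0.43 to −0.10 for the lower ones. On MCD 23 of 53 lysosomal hydrolases were higher and 2 lower (interaction in 4), as were 13 and 1 of 20 V-ATPase subunits (interaction in 2) and 14 and 1 of 32 membrane proteins (interaction in 4). Cd63 was among the last, with a smaller rise on MCD (log2 1.499, interaction −2.17, adjusted p = 0.00401). The interferon list turned, from 9 higher on chow to 1 higher and 17 lower on MCD, and the interaction was called for 25 of its 44 genes. Collagen and matrix genes went from 7 higher to 1 higher and 22 lower (interaction in 23), and lipid-associated macrophage genes from 7 higher to 2 higher and 6 lower (interaction in 10 of 18). Oxidative phosphorylation went from 4 lower to 49 higher (interaction in 46 of 75).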

How the data were processed

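Total RNA of frozen liver was made into poly(A) libraries and sequenced as single-end reads of 75 bases on a NextSeq500. The authors trimmed reads with Trimmomatic, aligned them to GRCm38 with STAR and deposited HTSeq counts, whole numbers of reads per gene without normalization, for 55573 genes and 22 libraries. Versions, annotation release and strand setting are not given in the sources used here. Adapters carried unique molecular identifiers, and a step collapsing on them is not given either, so counting intervals cover counting error only. All columns were matched to samples by their labels.

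Genes averaging 10 counts or more across the 22 libraries (14062) were fitted in R 4.3.3 with edgeR 4.0.16 (TMM, 1 quasi-likelihood fit of the 4 groups, two-sided tests, Benjamini-Hochberg adjustment). The study used limma; limma-voom (limma 3.58.1) and DESeq2 1.42.0 were alternatives. Within the chow groups no 2 libraries were identical (Spearman correlation 0.909 to 0.926 over all 55573 genes in the 25 pairs).

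Positions are from GENCODE M21. Named genes were Flcn, the 10 largest changes in each direction (called, mean of at least 1 CPM, groups not overlapping, no predicted or clone names), up to 4 called members of each list (the 2 with the smallest p where fewer than 2 were called), and Ctsa, Ctsf, Depp1, Sqstm1 and Apoa4. Genes of the Flcn neighbourhood and of Cre Chow 5 were chosen after their values were seen. The members and lists were chosen with earlier results of these data known. Alternatives were RLE factors, DESeq2, limma-voom, other filters on low counts, chow libraries alone, sex or mapping class as a covariate, either class of chow libraries alone, each library left out and a replicate block. The mean of both classes came from the fit grouped by genotype, diet and Xist class. The result of 1 named gene is not reported here.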

Additional observations from a re-analysis of the deposited data

Results flagged for a closer look

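Among 84 groups of library values, 5 had 1 library far from the rest, and chance flags about 1 in 20 groups. They were Prkg2 in Cre Chow 6 (0.161 CPM, with 0 in the other five), Prdx2-ps1 in Cre Chow 6 (5.06 CPM), Sqstm1 in FLCN KO Chow 2 (403 CPM, the lowest of its group), and the summed skeletal muscle markers in Cre Chow 5 (3.65 CPM) and FLCN KO Chow 3 (7.79 CPM).

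Among the 20 genes with the largest changes, the genotype difference was called different on MCD for 5 by edgeR's interaction term. The term was called for 8.83% of all genes tested, and for 261 of the 776 genes higher on chow and 100 of the 436 lower. The 20 genes were chosen by their chow values, which also enter the interaction. The MCD log2 fold change minus the chow one was −4.98 for Prkg2, −3.88 for Aqp7, −4.28 for Epdr1, −3.80 for Chil1 and 1.29 for Sucnr1, so each was smaller in size or opposite on MCD.

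The genotype difference on chow differed between Xist-low and Xist-high mice for 6 of 14062 genes (0.0427%). The metallothionein genes Mt1 and Mt2, which bind zinc and copper, had differences of 2.96 and 3.53 on the log2 scale (both adjusted p = 0.00342). Mt1 had 2.45, 4.803 and 4.98 CPM in the Xist-low Cre mice and 17, 23.7 and 40.9 CPM in the Xist-high ones, whereas all 5 liver-Flcn-/- mice lay between 31.2 and 41.0 CPM. The others were Cyp4a10 (1.79), Tmem98 (1.53), Psd4 (1.24) and Nat8f7 (6.93), with adjusted p of 0.0499, 0.0499, 0.0499 and 0.0404.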

How the results depend on the processing

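Higher and lower counts were 775 and 430 with RLE factors, 921 and 596 with DESeq2, 632 and 388 with limma-voom, 751 and 420 or 796 and 441 with other filters, and 749 and 185 without a filter, where 80.2% of calls were higher against 64%. Without the 5 Xist-low chow libraries they were 375 and 119, with 68 calls in the lists and 53 named genes called, and with those libraries alone 330 and 88, with 75, 60 and 111 interactions among chow genes. Chow libraries with sex as a covariate, added after seeing the data, gave 1201 and 659, with 318 list calls. Leaving out 1 library gave 500 to 806 higher and 170 to 426 lower genes, 257 to 359 interactions, 103 to 168 list calls and a Flcn log2 fold change of −0.70 to −0.56. The lower count was 288, 170 and 269 without FLCN KO Chow 3, 4 and 5. Flcn was −0.55 (adjusted p = 0.244) and −0.71 (adjusted p = 0.277) in the Xist-high and Xist-low libraries. The causes were not tested.

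Equal replicate numbers had deviation correlations of 0.43, 0.35, −0.55, 0.47 and −0.39 on chow. The positive pairs are of 1 Xist class and the negative ones of both, so these values do not tell whether a number pairs samples. On MCD they were 0.0621 to 0.263. Nothing in the labels pairs the samples beyond the number. With a replicate block 622 genes were higher and 247 lower, interactions were 220 and Flcn was −0.57 (adjusted p = 0.0528).

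Of 122 named genes called, none reversed and 33 passed under every alternative. Reversals were in genes that were not called. Kdm5d was 0.19 with limma-voom, 0.24 with sex, 0.23 with mapping class, 0.89 without the Xist-low libraries, 0.39 as the mean of both classes and 0.20 on chow with sex. Eif2s3y was 0.39, 0.38, 1.17, 0.49 and 0.36 under the same settings other than limma-voom. Acta1 was −0.37 with limma-voom, −2.58 without the Xist-low libraries and −0.072 as the class mean. Without the Xist-low libraries Stat5a was −0.0783, Socs3 0.41 and Ciart 0.97, and with them alone Scd2 was −0.0307. Leaving out 1 library moved Sqstm1 from −0.0871 to 0.0114, Kdm5d from −1.06 to 0.0299, Tnnt3 from −1.05 to 6.06 and Acta1 from −2.50 to 2.45.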

Other observations

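Gene families outside the lists were taken whole by symbol after values had been seen, so their counts are descriptions. Of 46 tested cilium genes 14 were higher on chow and none lower (median log2 fold change 0.26, against −0.03 over all genes, of which 5.52% were higher and 3.1% lower), and 8 were higher on MCD (8.06% of all genes). Evc, part of the complex that relays Hedgehog signals at the ciliary base, rose from 4.50 ± 2.45 to 33.6 ± 17.4 CPM (SD, n = 6 and 5), and its partner Evc2 from 2.15 ± 1.32 to 10.7 ± 4.51 CPM. Of 18 enzymes of amino sugar and sialic acid metabolism 5 were higher and none lower. Uap1l1 rose from 3.92 ± 1.05 to 68.5 ± 26.5 CPM and Renbp, N-acylglucosamine 2-epimerase, from 3.98 ± 1.03 to 37.4 ± 14.8 CPM, with smaller rises for Siae, Amdhd2 and Nagk (log2 0.86, 1.12 and 0.64).

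Tuba8, an alpha-tubulin, rose from 0.789 ± 0.193 to 27.6 ± 13.7 CPM on chow, with a log2 fold change of 5.12 there and 0.42 on MCD. It was 1 of 2 higher genes among 16 tubulins. The counts of the families that follow are small, beside 5.52% higher and 3.1% lower over all genes. Of 16 carboxylesterases 3 fell and none rose. Of 15 sulfotransferases 2 rose and 4 fell, and of 14 subunits of translation initiation factor 3 genes 1 rose and 5 fell. Of 11 annexins 2 rose, Anxa5 and Anxa8 (log2 1.09 and 5.88).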
